A study of Mus musculus with 27 samples.

Results

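S100 genes encode small proteins, most of them calcium-binding. The array design carried probes for 10 of these genes that are described here in full: S100a1, S100a3, S100a4, S100a6, S100a8, S100a9, S100a10, S100a11, S100a14 and S100a16. They were taken by gene name from the scanner files, each has 1 probe, and they are 10 of 28508 genes in the series. Samples were the mouse esophagus on a C57BL/6J background, hybridised in the Cy5 channel against a common Cy3 reference RNA pooled from mouse cell lines, with 27 arrays in 9 groups of 3. Wild-type esophagi were taken at embryonic days E11.5 and E15.5, at birth (P0) and at postnatal day 7 (P7). Whole P7 esophagi also came from mice lacking the transcription factor Nrf2 (Nrf2-/-), its inhibitor Keap1 (Keap1-/-) or both (Nrf2-/-Keap1-/-). Adult samples were the esophageal epithelium of wild-type and Nrf2-/- mice of 8 weeks, so age and tissue cannot be told apart between P7 and adult. Keap1-/- mice die before weaning, so that genotype was read at P7. RNA came from individual esophagi and no label names litters, so p-values measure the spread between these samples.

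Most S100 proteins, though not all, bind calcium through a pair of EF-hands and then expose a surface that holds a target protein. Most work inside the cell as dimers, for instance S100A10 bound to annexin A2 under the plasma membrane. S100A8 and S100A9 join into calprotectin, which neutrophils carry in bulk, which stressed squamous epithelium also makes, and which acts outside the cell on the receptors TLR4 and RAGE. Most S100 genes lie in the epidermal differentiation complex, a cluster of genes for the proteins of stratified epithelium. Nrf2 drives detoxifying and antioxidant genes, Keap1 holds it back, and loss of Keap1 thickens the keratinized layer of the squamous esophagus.

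All 10 probes lie on chromosome 3 in mm9, the build of the deposited probe positions, from 90315133 for S100a1 to 93368496 for S100a10. Promoter sequence from RefSeq (GRCm38.p6) was at hand for 8 of the 10 genes, in 12 windows of 250 bases before an annotated start. Windows are shown for S100a3 and S100a8, which moved most between genotypes, and for S100a11 and S100a16, which rose at birth, with the matches found on either strand in capitals. One motif searched was TGACNNNGC, the core of the element that Nrf2 binds. The AP-1 site was searched as TGACTCA, which can overlap the Nrf2 element when GC follows it. The core promoter box was searched as TATAAA. Each sequence runs 5′ to 3′ on the gene's strand.
S100a3, chr3:90586702-90586951, plus strand: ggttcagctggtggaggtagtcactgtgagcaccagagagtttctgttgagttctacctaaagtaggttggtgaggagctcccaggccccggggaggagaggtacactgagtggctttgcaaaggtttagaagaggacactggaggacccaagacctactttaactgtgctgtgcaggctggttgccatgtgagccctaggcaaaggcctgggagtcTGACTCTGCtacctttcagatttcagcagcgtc
S100a8, chr3:90668821-90669070, plus strand: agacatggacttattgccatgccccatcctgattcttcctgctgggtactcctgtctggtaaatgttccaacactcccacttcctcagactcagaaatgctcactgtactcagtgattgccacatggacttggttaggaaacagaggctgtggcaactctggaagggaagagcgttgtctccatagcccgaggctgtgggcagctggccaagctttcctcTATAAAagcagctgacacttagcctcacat
S100a11, chr3:93520246-93520495, plus strand: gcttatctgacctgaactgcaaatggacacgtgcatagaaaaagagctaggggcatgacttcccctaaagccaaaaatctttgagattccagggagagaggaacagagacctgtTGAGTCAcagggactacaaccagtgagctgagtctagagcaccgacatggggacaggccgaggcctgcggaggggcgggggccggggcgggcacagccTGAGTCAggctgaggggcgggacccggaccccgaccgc
S100a16, chr3:90537004-90537253, plus strand: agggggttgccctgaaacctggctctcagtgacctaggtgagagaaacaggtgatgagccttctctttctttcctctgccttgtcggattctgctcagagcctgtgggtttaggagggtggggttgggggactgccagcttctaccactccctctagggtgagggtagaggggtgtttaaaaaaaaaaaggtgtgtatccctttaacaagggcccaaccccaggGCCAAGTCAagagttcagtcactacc
S100a3 has 4 such windows, and TGACNNNGC is only in the one printed, 33 bases before that start. Which of these starts is used in the esophagus was not tested. S100a16 has 2 windows and holds the same letters, on the opposite strand, 26 bases before the start shown. TGACNNNGC occurs in 10.2% of the 32851 windows of all genes, beside 2 of the 12 member windows. S100a11 carries TGACTCA on the opposite strand at 136 and 38 bases before its start, letters present in 4.46% of all windows. TATAAA lies 30 bases before the start of S100a8, 31 bases before that of S100a4 and 52 bases before a further start of S100a3, against 12.4% of all windows.

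Values below are log2 of Cy5 over Cy3 after background correction and loess normalisation, where 0 means the level of the reference RNA. Genes were compared by limma over all genes tested, and a gene counted as called where its p, adjusted by Benjamini-Hochberg, was at most 0.05. A ratio says nothing of which gene is more abundant, so members are compared with themselves across groups. A fall of a transcript in whole tissue may mean fewer cells of a type or less RNA per cell, which bulk RNA cannot separate. On the plot of the 10 genes by array, the mean of each was higher at P0 than the mean of both embryonic stages, and S100a3, S100a10, S100a14 and S100a16 also differed between P7 and adult, while S100a3, S100a8 and S100a10 differed between Keap1-/- and wild type at P7.

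**Figure D1:**
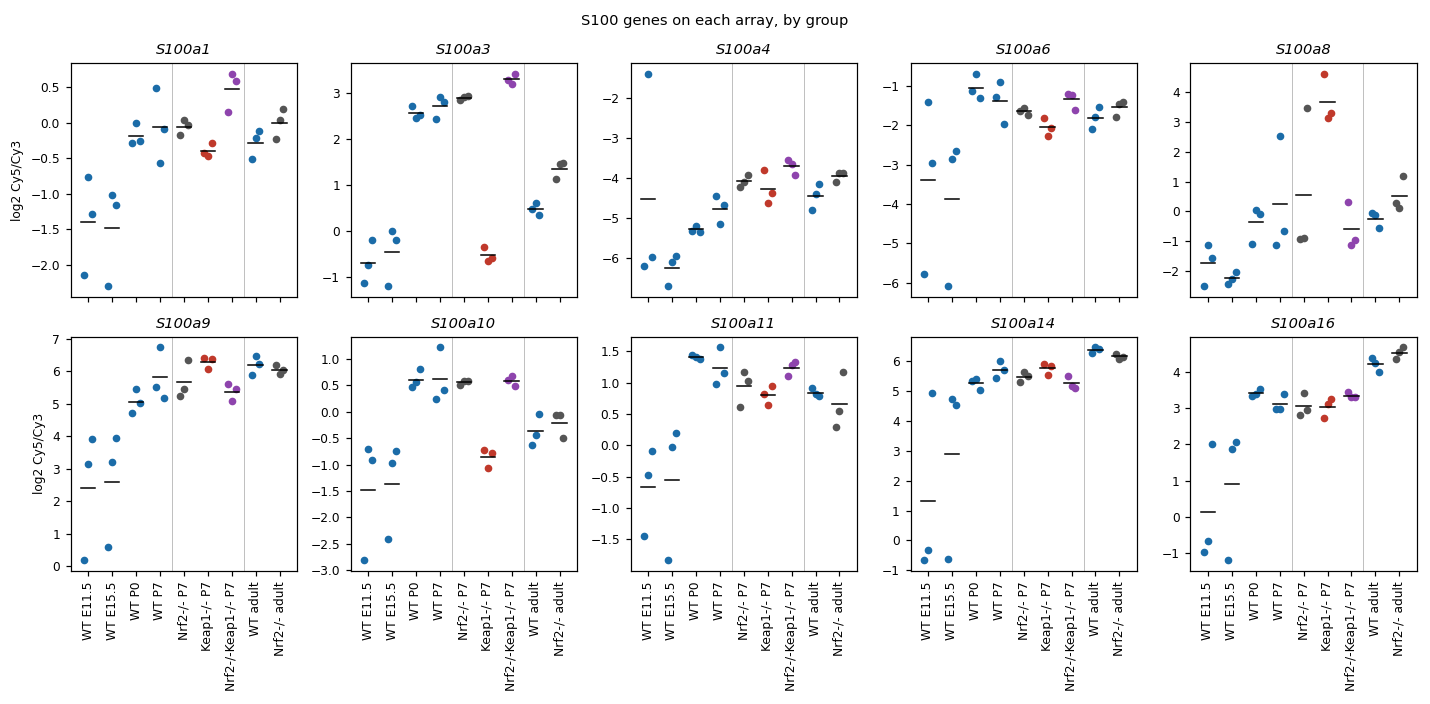
Each panel is 1 S100 gene, with log2 Cy5/Cy3 on the vertical axis and the 9 groups along the horizontal axis. Points are single arrays (3 per group, blue wild type, grey Nrf2-/-, red Keap1-/-, purple Nrf2-/-Keap1-/-), and lines are group means. S100a3 lies between -0.66 and -0.35 in Keap1-/- and between 3.20 and 3.42 in Nrf2-/-Keap1-/- esophagi.

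Several arrays need to be described before the results. Over 14104 genes, E11.5 replicate 3 correlated at 0.98 with E15.5 replicates 2 and 3 but at 0.86 with E11.5 replicate 1. E15.5 replicate 1 correlated at 0.96 with E11.5 replicate 1 and at 0.84 with both other E15.5 arrays. These arrays therefore sit with the other embryonic stage, and the labels were kept. E11.5 replicate 2 had the narrowest ratios of all arrays, with an SD of 0.84 against 1.12 to 1.35 elsewhere, and a Cy5 intensity of 69236 for S100a4 against 2170 and 4064 on the other E11.5 arrays. Embryonic results are given with and without these arrays. In the genotype check, Nfe2l2, the gene for Nrf2, fell by 3.63 in Nrf2-/- and by 3.86 in Nrf2-/-Keap1-/- esophagi at P7, and 11 of 12 Nrf2 target genes were higher in Keap1-/-. The Keap1 probe read -0.26, 0.22 and 0.64 in Keap1-/- and 0.42 to 1.00 in wild-type P7 samples, and whether it lies in the deleted part was not known. The 8 epithelial markers were well above background in all groups. Skeletal muscle markers averaged 3.50 to 4.79 in wild-type P7 esophagi and 0.65 to 1.43 in adult wild-type epithelium, so muscle transcripts were lower but still present there.

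From the embryo to birth, every member's mean change was upward, and 6 of the 10 rose past the threshold between the mean of both embryonic stages and P0. These were S100a1, S100a3, S100a9, S100a10, S100a11 and S100a16. Over all genes 15.1% rose and 13.5% fell in that comparison, and no member fell. The median change of the members was 2.30 on the log2 scale and that of all 19925 genes -0.02. Fits without certain embryonic arrays are descriptions, since those arrays were chosen from these same data. No share of all genes called in those fits is given, so their counts are not results about the S100 genes. Without the E11.5 array of replicate 3 and the E15.5 array of replicate 1, 7 members rose, S100a14 among them at 3.18 ± 0.16 (adjusted p = 1.62e-06). With E11.5 replicate 2 left out as well, 9 rose. The 6 calls became 3 without P0 replicate 1, 3 without P0 replicate 2 and 2 without P0 replicate 3. No slide was shared between embryonic, P0 and wild-type P7 arrays. Slide and stage therefore cannot be told apart in this comparison or in the later steps to P0 and P7.

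S100a3, a protein known from the hair cuticle, changed most firmly. It read -1.13, -0.73 and -0.19 at E11.5 and -1.20, 0.00 and -0.19 at E15.5. At birth it read 2.71, 2.45 and 2.52, and at P7 it read 2.44, 2.91 and 2.81. All postnatal wild-type whole esophagi were above all embryonic ones. The rise from the embryonic mean to P0 was 3.13 ± 0.27 (SE), or 8.77-fold, with an adjusted p of 3.16e-05, and it stayed between 2.76 and 3.84 under 27 alternatives.

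S100a10 and S100a11, which pair with annexins, rose in step with S100a3. S100a10 read -2.81, -0.70 and -0.92 at E11.5, -2.42, -0.97 and -0.74 at E15.5, and 0.46, 0.56 and 0.81 at P0. Its rise from the embryonic mean was 2.04 ± 0.49 (adjusted p = 0.0111), which missed the threshold without P0 replicate 3 (1.93, adjusted p = 0.0507). S100a11 read -1.45, -0.47 and -0.09 at E11.5, -1.83, -0.03 and 0.19 at E15.5, and 1.44, 1.41 and 1.37 at P0. No embryonic array reached the P0 values of either gene. The S100a11 rise was 2.02 ± 0.42 (adjusted p = 0.00538) and passed the threshold under all 26 alternatives that tested it. Its spot was flagged as an outlier on 17 of 27 arrays.

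S100a14 and S100a16, neighbours on the chromosome and both expressed in stratified epithelium, fell into low and high embryonic arrays that did not match the labels. S100a14 read -0.66, -0.31 and 4.93 at E11.5 and -0.64, 4.75 and 4.55 at E15.5. S100a16 read -0.96, -0.67 and 2.01 at E11.5 and -1.19, 1.87 and 2.06 at E15.5. In both genes the E11.5 array of replicate 3 and the E15.5 array of replicate 1 took the values of the opposite stage. At P0, S100a14 lay between 5.03 and 5.42 and S100a16 between 3.35 and 3.53, above all embryonic arrays. From the embryonic mean to P0, S100a16 rose by 2.91 ± 0.76 (adjusted p = 0.0167), while S100a14 differed by 3.16 ± 1.35 (adjusted p = 0.105). Leaving out any P0 array took the S100a16 call away, with changes of 2.85 to 2.94 and adjusted p from 0.0543 to 0.0622.

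S100a9, 1 chain of calprotectin, read 0.19, 3.15 and 3.91 at E11.5 and 0.60, 3.20 and 3.95 at E15.5, then 4.73, 5.46 and 5.02 at P0. Its rise from the embryonic mean to P0 was 2.57 ± 0.86 (adjusted p = 0.0465), just under the threshold, and was lost in 10 of 12 repeats that left out 1 array (2.01 to 2.75, adjusted p 0.0501 to 0.146). It held without E15.5 replicate 3 and E11.5 replicate 3. S100a8, the other chain, was dimmer. It read -2.51, -1.12 and -1.56 at E11.5, -2.44, -2.28 and -2.02 at E15.5 and -1.08, 0.05 and -0.08 at P0, and was not well above background on E11.5 replicate 1 and E15.5 replicate 1. No P0 value of S100a8 overlapped the embryonic ones, but the change of 1.62 ± 0.68 missed the threshold (adjusted p = 0.100).

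S100a1, which binds ryanodine receptors in muscle, read -2.14, -0.76 and -1.28 at E11.5, -2.30, -1.01 and -1.15 at E15.5 and -0.28, -0.01 and -0.25 at P0. The change of 1.26 ± 0.36 (adjusted p = 0.0237) was lost without P0 replicate 1, 2 or 3, at 1.18 to 1.31 with adjusted p of 0.0642 to 0.0909. S100a6, calcyclin, read -5.78, -1.42 and -2.96 at E11.5, -6.09, -2.85 and -2.66 at E15.5 and -1.14, -0.69 and -1.31 at P0, a difference of 2.58 ± 0.93 (adjusted p = 0.0595). S100a4, a gene of fibroblasts and leukocytes, read -6.20, -1.40 and -5.97 at E11.5, -6.71, -6.11 and -5.95 at E15.5 and -5.32, -5.20 and -5.35 at P0. The S100a4 difference from the embryonic mean was 0.1 ± 0.85 (adjusted p = 0.944), and -0.37 ± 0.87 without E11.5 replicate 3 and E15.5 replicate 1. Without E11.5 replicate 2, the array with narrow ratios, S100a4 rose by 0.88 ± 0.20 (adjusted p = 0.0102) and S100a6 by 3.07 ± 0.83 (adjusted p = 0.0229). That array stood out partly by its own S100a4 intensity, so the S100a4 value without it is a description.

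From E11.5 to E15.5 as labelled, 0 of 10 members and 0% of all genes were called by limma, with 0 members and 327 genes at an unadjusted p of 0.05 or lower. Without E11.5 replicate 3 and E15.5 replicate 1, 4 members rose. These arrays were chosen from the same data, in which S100a14 and S100a16 themselves take the values of the opposite stage. The p-values and counts of such fits are therefore descriptions and do not test the step. No share of all genes called in those fits is given, so the counts are not results about the S100 genes. S100a14 then rose by 5.13 ± 0.21 (adjusted p = 3.17e-06), S100a16 by 2.78 ± 0.18 (adjusted p = 2.38e-05), S100a11 by 1.04 ± 0.29 (adjusted p = 0.0447) and S100a3 by 0.83 ± 0.19 (adjusted p = 0.0220). Without E11.5 replicate 2 as well, which leaves 1 array at E11.5 whose spread is taken from the other groups, 7 members rose and S100a6 stood 3.02 ± 0.40 higher (adjusted p = 0.00249). Slide 1 held all E11.5 arrays and, of E15.5, only replicate 1. On it all 10 members were lower in that 1 E15.5 array, from -0.52 for S100a3 to -2.71 for S100a6. As that array sits with E11.5, and E11.5 replicate 3 with E15.5, these differences do not measure the step between stages. No share of all genes is given for them.

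The remaining steps of wild-type development added few calls. From E15.5 to P0, S100a1, S100a3, S100a10 and S100a11 rose, 4 of 10. Over all 19925 genes 19.7% were called in either direction, 2236 of them higher and 1680 lower. S100a3 alone was called in every repeat that left out 1 array. The count was 1 without any of the 3 P0 arrays and 2 without E15.5 replicate 1. From P0 to P7, 0 of 10 were called, with 0 at an unadjusted p of 0.05 or lower, against 2.43% of all genes. The largest of these differences was 0.75 ± 0.99 for S100a9 (adjusted p = 0.833).

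Between E11.5 and P7, 6 members rose, against 30.2% of all genes called in either direction, with S100a3 up by 3.40 ± 0.31 and S100a9 by 3.40 ± 0.99 (adjusted p = 6.02e-05 and 0.0261). The count was 1 without E11.5 replicate 1 and 2 without P7 replicate 2. From the embryonic mean to P7, 7 rose and 0 fell, against 19.9% and 16.5% of all genes (54.7% of calls higher, 35.1% under median centring), and S100a8 joined the earlier 6 at 2.24 ± 0.68 (adjusted p = 0.0258). Without wild-type P7 replicate 2 the count was 4 and S100a8 stood at 1.1 (adjusted p = 0.0566). Across the 4 stages together, 6 members were called against 30.0% of all genes, and 3 without any 1 P0 array or P7 replicate 3.

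Between wild-type P7 esophagus and adult epithelium, S100a14 and S100a16 rose and S100a3 and S100a10 fell. Over all genes 19.9% rose and 22.9% fell. S100a3 went from 2.44, 2.91 and 2.81 to 0.48, 0.60 and 0.35, a fall by 2.24 ± 0.16 or 4.73-fold (adjusted p = 6.46e-05), with no overlap. S100a16 went from 2.98, 2.99 and 3.40 to 4.38, 4.26 and 4.01, higher by 1.1 ± 0.17 (adjusted p = 0.00181). S100a14 went from 5.44, 6.00 and 5.72 to 6.29, 6.47 and 6.4, higher by 0.67 ± 0.16 (adjusted p = 0.0134). S100a10 went from 0.25, 1.22 and 0.41 to -0.63, -0.44 and -0.05, a fall by 1.00 ± 0.27 (adjusted p = 0.0215).

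No slide held both wild-type P7 and adult arrays, so slide cannot be told apart from age and tissue. Adult replicate 3 was also scanned apart from the P7 arrays. Among arrays of the shared scan the changes were -2.18 for S100a3, -1.16 for S100a10, 0.66 for S100a14 and 1.20 for S100a16. The S100a10 call was lost without adult replicate 1 (-0.87, adjusted p = 0.0774) or 2 (-0.97, adjusted p = 0.0664), and the S100a14 call without adult replicate 2 (0.63, adjusted p = 0.0501). With arrays scaled to equal spread, S100a14 was -0.13 (adjusted p = 0.731), so its direction depends on scaling, and S100a16 was 0.63 (adjusted p = 0.0513). The count of calls was 2 without adult replicate 2. S100a8, at -1.11, 2.52 and -0.66 at P7 and -0.05, -0.12 and -0.55 in adults, turned from -0.49 (adjusted p = 0.672) to 0.65 (adjusted p = 0.0432) without P7 replicate 2, and S100a9 was then 0.84 higher in adults (adjusted p = 0.0156). All 9 fibroblast markers also fell between these groups, against 22.9% of all genes. The groups differ in tissue, and the part of fibroblasts in the S100 changes was not tested.

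At P7, loss of Keap1 moved 3 members against wild type: S100a3 and S100a10 fell and S100a8 rose. Over all genes 15.4% rose and 18.0% fell in this comparison, or 46.1% of calls were higher, against 66.1% when each array was centred on its median, where S100a3 and S100a10 still fell and S100a4, S100a8, S100a9 and S100a14 rose. All 3 Keap1-/- arrays shared a slide and a scan that held no other group, so batch and genotype cannot be told apart in any Keap1-/- comparison. They were also read with another software version than the other P7 arrays. The 3 wild-type P7 arrays filled a slide alone too. Slide and genotype therefore cannot be told apart against wild type for Nrf2-/- and Nrf2-/-Keap1-/- either. The comparisons with wild type share those 3 wild-type arrays.

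**Figure D2:**
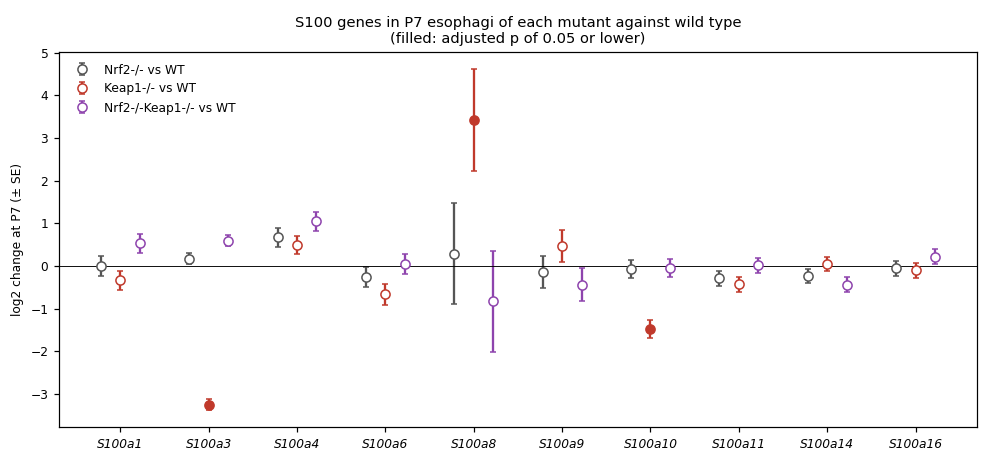
Log2 change of each S100 gene at P7 in Nrf2-/- (grey), Keap1-/- (red) and Nrf2-/-Keap1-/- (purple) esophagi against wild type, with bars of 1 SE and 3 arrays per group; filled points have an adjusted p of 0.05 or lower. S100a3 at -3.25 and S100a10 at -1.48 fell and S100a8 at 3.42 rose in Keap1-/-, while no Nrf2-/- or Nrf2-/-Keap1-/- point is filled.

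S100a3 read -0.35, -0.66 and -0.58 in Keap1-/- esophagi, against 2.44, 2.91 and 2.81 in wild type. It read 2.84, 2.91 and 2.93 in Nrf2-/- and 3.29, 3.20 and 3.42 in Nrf2-/-Keap1-/-. The Keap1-/- values lay within the embryonic range, and the double mutants were above every other array of the series. Against wild type S100a3 fell by 3.25 ± 0.13, 9.52-fold (adjusted p = 4.22e-08). Against Nrf2-/-Keap1-/- it fell by 3.84 ± 0.13, 14.3-fold (adjusted p = 1.23e-08). The effect of losing Keap1 differed with the Nrf2 genotype by -3.67 ± 0.18 (interaction, adjusted p = 7.32e-07). These 3 calls held under each alternative tried and with each array left out.

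S100a10 was also lowest at P7 in Keap1-/-, while the other 3 P7 groups overlapped. It read -0.73, -1.06 and -0.79 in Keap1-/-, 0.25, 1.22 and 0.41 in wild type, 0.50, 0.58 and 0.59 in Nrf2-/- and 0.61, 0.67 and 0.48 in Nrf2-/-Keap1-/-. Keap1-/- was below all other P7 arrays. It fell by 1.48 ± 0.21 against wild type, 2.80-fold (adjusted p = 0.000419), and by 1.44 ± 0.21 against Nrf2-/-Keap1-/- (adjusted p = 0.000487). The interaction was -1.51 ± 0.29 (adjusted p = 0.00683), and it missed the threshold in the fit of all 27 arrays (adjusted p = 0.100).

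Of 4 annexins in the list of binding partners, 2 fell in Keap1-/- as S100a10 did. Anxa2, the partner of S100A10, read 0.38, 1.21 and 0.93 in wild type and -0.65, -1.01 and -0.73 in Keap1-/-, and fell by 1.64 ± 0.20 (adjusted p = 0.000194). Anxa1, a partner of S100A11, read 1.51, 2.58 and 2.10 in wild type and -0.67, -0.56 and -0.44 in Keap1-/-, and fell by 2.62 ± 0.23 (adjusted p = 1.67e-05). Neither overlapped between these groups. Anxa6 differed from wild type by -0.12 ± 0.13 (adjusted p = 0.502) and Anxa11 by 0.27 ± 0.15 (adjusted p = 0.209), and neither was called. S100a11 itself read 0.81, 0.64 and 0.94 in Keap1-/-, just below 0.97, 1.56 and 1.15 in wild type, a difference of -0.43 ± 0.18 (adjusted p = 0.0838). Over the 27 arrays, which include groups of 3 that share a stage and tissue, S100a10 was most like Anxa1 of 18219 genes (Pearson r = 0.96).

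**Figure D3:**
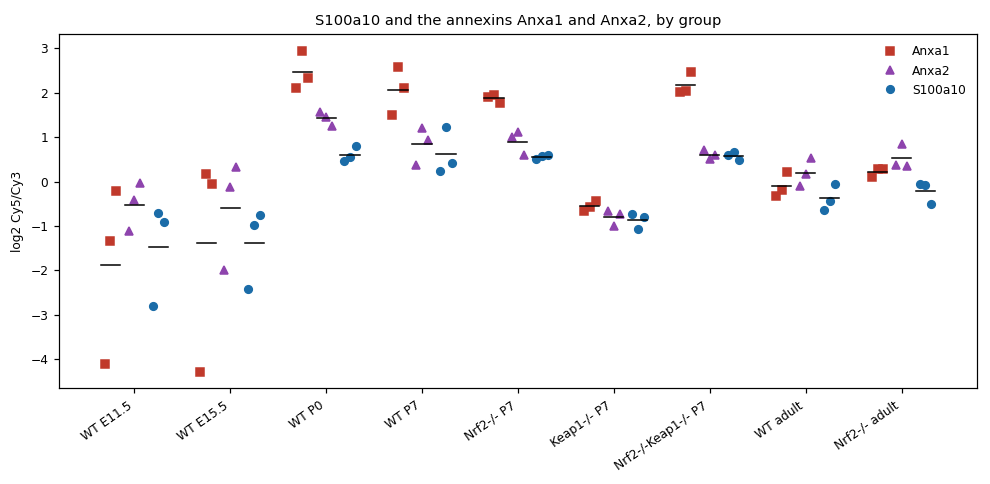
Log2 Cy5/Cy3 of Anxa1 (red squares), Anxa2 (purple triangles) and S100a10 (blue circles) on the 3 arrays of each of the 9 groups, with lines at group means. In Keap1-/- all 3 genes lie below 0, S100a10 between -1.06 and -0.73, and in the other P7 groups all lie above 0.

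S100a8 read 4.61, 3.12 and 3.28 in Keap1-/-, against -1.11, 2.52 and -0.66 in wild type, -0.94, -0.89 and 3.45 in Nrf2-/- and 0.31, -1.11 and -0.95 in Nrf2-/-Keap1-/-. Keap1-/- did not overlap wild type or the double mutant, and 1 array each of wild type and Nrf2-/- stood far above its group. The rise against wild type was 3.42 ± 1.19, about 11-fold (adjusted p = 0.0477), and that against Nrf2-/-Keap1-/- was 4.25 ± 1.19, 19.1-fold (adjusted p = 0.0191). The interaction missed the threshold at 4.55 ± 1.69 (adjusted p = 0.0956). The call against wild type was lost without any 1 Keap1-/- or Nrf2-/-Keap1-/- array or without wild-type replicate 1 or 3 (2.74 to 3.69, adjusted p 0.0565 to 0.15). The call against the double mutant was lost without Keap1-/- replicate 1 or Nrf2-/-Keap1-/- replicate 2 or 3 (3.78 to 4.07, adjusted p 0.0549 to 0.0563).

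The high wild-type and Nrf2-/- arrays, replicates 2 and 3 respectively, were also high in genes of neutrophil granules. Camp, a neutrophil antimicrobial peptide, read 5.08 and 5.68 on them, 1.20 to 1.90 on the other wild-type and Nrf2-/- arrays and 1.90, 0.52 and 0.38 in Keap1-/-. Mpo, myeloperoxidase, read 2.26 and 4.27 on them and 1.30, -0.33 and -0.34 in Keap1-/-. Over the 11 neutrophil markers on the array, the mean was 1.69 and 2.60 on the 2 high arrays, 0.70 to 0.88 on the other wild-type and Nrf2-/- arrays, 0.58 to 1.07 in Nrf2-/-Keap1-/- and 0.25 to 0.80 in Keap1-/-. Of these markers 5 were well above background on all 3 Keap1-/- arrays and 2 on none of them. Of 10 markers tested in Keap1-/- against wild type, 1 rose and 1 fell, against 15.4% and 18.0% of all genes. Cxcr2, a chemokine receptor of neutrophils, read 1.03, 1.38 and 1.73 in Keap1-/- and 0.13, -0.05 and 0.11 in wild type. It rose by 1.32 ± 0.15 (adjusted p = 0.00011). In adult wild-type epithelium Cxcr2 read 2.12, 1.62 and 2.09. Camp read -0.64, -0.2 and -0.54 there and Mpo -0.34, -0.31 and -0.66, so Cxcr2 did not follow these granule genes across groups. Ltf, lactoferrin, read 1.08, 0.49 and 0.18 in Keap1-/- and 5.12 to 6.29 on all other P7 arrays, and fell by 5.35 ± 0.22 against wild type (adjusted p = 5.57e-08). Without Ltf the mean of the other 10 markers was 0.78, 0.22 and 0.26 in Keap1-/-, 0.18, 1.23 and 0.41 in wild type, 0.28, 0.38 and 2.27 in Nrf2-/- and 0.65, 0.11 and 0.20 in Nrf2-/-Keap1-/-, so Keap1-/- then lay within the range of the other groups. The part of neutrophils in the S100a8 difference was not tested. Without the 2 arrays high in granule genes the S100a8 difference from wild type was 4.56, which is given as a description because those arrays also had the high S100a8 values of their groups.

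**Figure D4:**
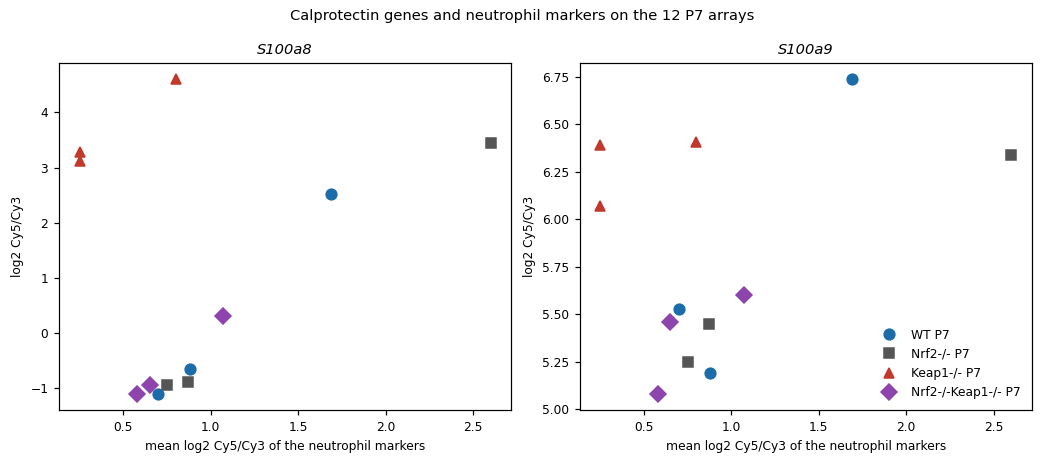
Log2 Cy5/Cy3 of S100a8 (left) and S100a9 (right) against the mean log2 Cy5/Cy3 of 11 neutrophil markers on the 12 P7 arrays, 3 per genotype. The Keap1-/- arrays (red triangles) have S100a8 at 3.12 to 4.61 with a marker mean of 0.25 to 0.80, and wild-type replicate 2 and Nrf2-/- replicate 3 reach 2.52 and 3.45 with means of 1.69 and 2.60.

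S100a9 differed less as a ratio. It read 6.41, 6.07 and 6.39 in Keap1-/-, 5.53, 6.74 and 5.19 in wild type, 5.25, 5.45 and 6.34 in Nrf2-/- and 5.60, 5.08 and 5.46 in Nrf2-/-Keap1-/-. Wild type overlapped Keap1-/- and the double mutant lay below it. The difference from wild type was 0.47 ± 0.38 (adjusted p = 0.366) and that from Nrf2-/-Keap1-/- was 0.91 ± 0.38 (adjusted p = 0.0857).

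The Cy3 signal of S100a9 was not constant although all arrays carried the same reference. In wild-type P7 samples the Cy5 intensities were 2752, 16815 and 2459 beside Cy3 intensities of 208, 827 and 201. In Keap1-/- they were 60425, 127212 and 120477 beside 1958, 2839 and 3296. In adult wild type they were 50943, 50914 and 70477 beside 3134, 2881 and 1628. Cy3 was thus higher in Keap1-/- and adult than in wild-type P7 samples, as Cy5 was. The adult array with the highest Cy5, replicate 3, had the lowest Cy3 of its group. It also had another slide, scan and software version than the other adult wild-type arrays. The cause was not tested. Over all arrays Cy3 also ranged from 275 to 8535 for S100a14 and from 240 to 1465 for S100a3. S100a8, whose Cy3 stayed between 704 and 1295 over all arrays, had Cy5 intensities of 115, 1082 and 204 in wild type and 8129, 4008 and 4124 in Keap1-/-.

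Between Keap1-/- and Nrf2-/-Keap1-/- esophagi 6 members were called, 2 higher and 4 lower, against 15.1% and 18.3% of all genes. Besides the 3 above, S100a1 was lower by 0.88 ± 0.23 (adjusted p = 0.0135), at -0.43, -0.47 and -0.29 against 0.15, 0.69 and 0.59. S100a6 was lower by 0.71 ± 0.24 (adjusted p = 0.0397), at -1.81, -2.28 and -2.07 against -1.20, -1.22 and -1.60. Against wild type, with which it overlapped, its difference was -0.67 ± 0.24 (adjusted p = 0.0502), which was called with slide as a random block (adjusted p = 0.0221). That block fit had a slide correlation of -0.1 and does not correct for slide. S100a14 was higher by 0.49 ± 0.17 (adjusted p = 0.0410), at 5.90, 5.56 and 5.86 against 5.52, 5.19 and 5.12. None of these overlapped, but the S100a6 call was lost in 7 and the S100a14 call in 6 of 12 repeats that left out 1 array (-0.84 to -0.60 and 0.42 to 0.62). The count was 3 without Nrf2-/-Keap1-/- replicate 2. Of all genes 15.1% were called for the interaction, and of the members S100a3 and S100a10. Without wild-type P7 replicate 2 the interaction was called for 4 members and Keap1-/- against wild type for 5. The share of all genes called without that array is not given.

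Markers of other cells moved between Keap1-/- and wild type at P7, where 15.4% of all genes rose and 18.0% fell. The 9 fibroblast markers averaged 0.45 to 0.83 in Keap1-/- and 1.77 to 2.14 in wild-type P7 arrays, and 8 of 9 fell. Of 9 macrophage markers 7 fell, with means of -1.30 to -0.86 against -0.39 to -0.28. Of 7 smooth muscle markers 5 fell and 1 rose. The 8 epithelial markers averaged 3.39 to 3.60 in Keap1-/- and 3.40 to 3.92 in wild type, with 1 higher and 2 lower. The part of these cells in the S100 changes was not tested. S100a4, the member known from fibroblasts, read -3.80, -4.64 and -4.37 in Keap1-/- and -4.46, -5.16 and -4.68 in wild type, a difference of 0.49 ± 0.22 (adjusted p = 0.116). S100a16 read 2.72, 3.12 and 3.25 in Keap1-/- and 3.44, 3.30 and 3.30 in Nrf2-/-Keap1-/-, and was not called.

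Loss of Nrf2 alone at P7 called 0 of 10 members by limma and 0.0156% of all genes, with 1 member at an unadjusted p of 0.05 or lower. That was S100a4, at -4.22, -4.11 and -3.94 in Nrf2-/-, above all wild-type arrays by 0.67 ± 0.22 on average (adjusted p = 0.40). In Nrf2-/-Keap1-/- against wild type 0 of 10 and 0.426% of all genes were called, with 4 members at an unadjusted p of 0.05 or lower. S100a4 read -3.56, -3.65 and -3.94, higher by 1.05 ± 0.22 (adjusted p = 0.0704), and S100a3 was higher by 0.59 ± 0.13 (adjusted p = 0.078). Both were apart from wild type on all arrays without passing the threshold. Both passed it under median centring and with slide as a random block (S100a4 at 1.04, adjusted p = 0.0304, and S100a3 at 0.59, adjusted p = 0.0345). The slide correlation in that block fit was -0.1 and wild-type arrays filled a slide alone, so it does not correct for slide. S100a4 also passed the threshold without Keap1-/- replicate 1 and with arrays scaled to equal spread (1.53, adjusted p = 0.0328).

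In adult epithelium 0 of 10 members were called between Nrf2-/- and wild type by limma, with 3 at an unadjusted p of 0.05 or lower, against 0.225% of all genes higher and 0.219% lower. No slide held adult arrays of both genotypes, so slide and genotype cannot be told apart here. Wild-type replicates 1 and 2 also had another scan and software version than every Nrf2-/- array. S100a3 came nearest, at 1.14, 1.45 and 1.49 in Nrf2-/- against 0.48, 0.60 and 0.35, apart by 0.88 ± 0.14 or 1.84-fold (adjusted p = 0.0507). It passed the threshold under 5 of 20 alternatives, among them the fit without Nrf2-/- adult replicate 1, and within the shared scan it was 0.94, from 1 wild-type and 2 Nrf2-/- arrays. With scan as a block it was 0.94 ± 0.18 (adjusted p = 0.143). S100a8 read 0.29, 0.12 and 1.18 in Nrf2-/- against -0.05, -0.12 and -0.55, apart by 0.77 ± 0.28 (adjusted p = 0.238). S100a4 was apart by 0.51 ± 0.18 (adjusted p = 0.229), at -4.10, -3.87 and -3.89 against -4.81, -4.41 and -4.16, and with scan as a block by 0.17 ± 0.21. The change with Nrf2 loss was not shown to differ between ages, with 0 of 10 members and 0.0919% of all genes called and 1 member at an unadjusted p of 0.05 or lower. S100a3 had an interaction of 0.71 ± 0.20 (adjusted p = 0.236).

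The order of the 9 groups differed from gene to gene. S100a3 was highest in Nrf2-/-Keap1-/- at 3.31 ± 0.11 (SD, n = 3), followed by Nrf2-/- at 2.89 ± 0.05, wild-type P7 at 2.72 ± 0.25 and P0 at 2.56 ± 0.13, of which the last 3 overlapped with their neighbours. Nrf2-/- adults at 1.36 ± 0.19 and wild-type adults at 0.48 ± 0.13 stood apart below, and the E15.5, Keap1-/- and E11.5 groups overlapped at the bottom. S100a14 was highest in wild-type adults at 6.39 ± 0.09, with Nrf2-/- adults next at 6.17 ± 0.08, an order that median centring turned (5.51 and 6.07) and a difference that was not called (adjusted p = 0.369). The P0 and P7 groups overlapped in sequence from 5.77 to 5.26. S100a16 put both adult groups first at 4.52 ± 0.17 and 4.22 ± 0.19, apart from the P0 and P7 groups at 3.03 to 3.42. After birth the group means of S100a8 spanned 4.25 and those of S100a3 3.84, whereas those of S100a11 spanned 0.75 and those of S100a1 0.88. S100a1, S100a6, S100a8, S100a9 and S100a11 had overlapping neighbours almost throughout the postnatal groups, apart from S100a11 between P0 and Nrf2-/-Keap1-/-.

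Genes with the most similar pattern over the 27 arrays were epithelial for several members. S100a14 was most like Pkp1, Aqp3 and Lypd3 (each r = 0.99), which encode a desmosome plaque protein, a water channel of the basal layers and a protein of stratified epithelium. S100a16 was most like Ehf (r = 0.99), Mid2 (r = 0.98) and Zfp750 (r = 0.98), the first and last being transcription factors of epithelium. S100a3 was most like Apol7a (r = 0.98), Elf3 and Emp1 (each r = 0.97). S100a9 was most like Lmna, Rab7b and Aldh3b2 (each r = 0.96), and S100a10, after Anxa1, like Elf3 (r = 0.95) and 9130008F23Rik (r = 0.94). S100a8 had no close match, with Serpina3n and Reep6 at 0.84 and Syne3 at 0.83. S100a4 came nearest to Uap1l1 (r = 0.89), Pdcd1 (r = 0.88) and Fxyd5 (r = 0.85). S100a1 was most like S100a13 (r = 0.94), Nupr1 and Ifi35 (each r = 0.91), and S100a6 like Isg20, Htra1 and S100a13 (each r = 0.91). S100a11 was most like a probe without a gene symbol (r = 0.99), Dbndd2 and Cdkn2b (each r = 0.93). Between members, S100a14 and S100a16 correlated at 0.95, S100a14 and S100a9 at 0.90 and S100a3 and S100a8 at 0.04.

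Of 8 further S100 genes sought by name, 5 had a probe: S100a5, S100a7a, S100a13, S100b and S100g. S100a7a, the mouse relative of human psoriasin, was not well above background on any embryonic array, read 0.26, 0.14 and 0.62 in wild-type P7 samples and 5.20, 4.54 and 4.34 in adult epithelium, and was higher there by 4.35 ± 0.24 or 20.4-fold (adjusted p = 2.56e-05). S100b, a glial gene, read 3.61, 2.59 and 3.71 at P7 and 0.26, 0.70 and 1.63 in adults, a fall by 2.44 ± 0.41 (adjusted p = 0.00278), while the 6 glia markers averaged 0.93 to 1.32 and 0.30 to 0.44. S100g, calbindin of the gut, was well above background on all wild-type P7 arrays and on no Keap1-/- or adult array, and was at least 3.08-fold lower in Keap1-/- (adjusted p = 0.0119) and at least 3.34-fold lower in adults (adjusted p = 0.00164). These bounds set the mean Cy5 level of the brighter group, after loess and Aquantile scaling, against the lowest signal well above background or the dim probe's own, and are open to dye bias without dye swaps. S100a13 rose from the embryonic mean to P0 by 1.16 ± 0.32 (adjusted p = 0.0198), and S100a5 stayed between -1.37 and -0.14.

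Fused-type S100 genes make large proteins of the cornified layer that start with an S100 domain. Of 7 sought, 6 had a probe, and Tchhl1 was not well above background in any group. Rptn, repetin, rose from 0.00 to 0.30 in embryos to 2.51, 3.54 and 1.67 at P0 and 4.80, 5.0 and 4.23 at P7, with a step of 2.11 ± 0.37 between P0 and P7 (adjusted p = 0.0155). From wild-type P7 to adult epithelium Flg, Flg2, Hrnr and Rptn rose, 4 of 5 tested, against 19.9% of all genes. Hrnr, hornerin, went from 3.50, 2.94 and 1.46 to 8.16, 8.02 and 7.25, higher by 5.18 ± 0.50 (adjusted p = 0.000255). In Keap1-/- at P7, Tchh, trichohyalin, was the 1 of 4 tested that changed, where 15.4% of all genes rose and 18.0% fell. It read 1.36, 1.48 and 1.23 against 2.06, 2.61 and 2.55 in wild type, a fall by 1.05 ± 0.15 (adjusted p = 0.000451). Flg at P7 ranged from 0.61 to 3.35 within wild type and from -0.04 to 3.89 within Nrf2-/-, and Hrnr from 0.00 to 5.40 within Nrf2-/-Keap1-/-.

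Of 18 listed binding partners and receptors of S100 proteins, 16 were tested across wild-type development. From the embryonic mean to P0, 7 rose and 2 fell, against 15.1% and 13.5% of all genes. From P7 to adult 1 rose and 7 fell, against 19.9% and 22.9% of all genes. In Keap1-/- against wild type 3 rose and 4 fell, against 15.4% and 18.0% of all genes: Ahnak, Cd36 and Ryr1 rose and Anxa1, Anxa2, Sugt1 and Tlr4 fell. Tlr4, a receptor for calprotectin, read -1.72, -1.99 and -2.20 in Keap1-/- and -1.36, -1.09 and -1.07 in wild type, a fall by 0.80 ± 0.18 (adjusted p = 0.00567), so it was lower in the group where S100a8 was highest. The same 4 that fell were lower against Nrf2-/-Keap1-/- too. Ager, the gene for RAGE, read between -0.59 and 0.95 on all arrays. Against wild type at P7, 0 of 16 were called in Nrf2-/- and 0 in Nrf2-/-Keap1-/-.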

How the data were processed

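RNA of 27 mouse samples was hybridised to Agilent arrays with 2 colours, Cy5 for the sample and Cy3 for the common reference, without dye swaps. The deposited scanner files hold mean spot intensities and local backgrounds that the authors read with Agilent Feature Extraction (10.5.1.1 or 10.7.3.1 per the file headers; 9.1 in the submitters' processing notes). They also hold background-subtracted, dye-normalized processed intensities and their log10 ratio, as deposited. The deposited value table repeats that log10 ratio within 0.005.

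Mean intensities were corrected by normexp (offset 50) and normalized by loess within each array with limma 3.58.1 in R 4.3.3. Control spots had no weight, outlier-flagged spots were kept, and spots over a background above 5 times the array median were left out (0.00367% of spots). The members' spots were outlier-flagged on 2 (S100a8) to 18 (S100a16) of 27 arrays. Spots were averaged per probe and probes per gene. Genes entered a fit where 3 or more of its arrays had a probe whose Cy5 signal was marked well above background and each group had at least 2 values. One fit held the groups of each comparison, with moderated variances from eBayes and p-values adjusted over all genes tested. Of 41174 probes, 26918 (65.4%) were named through their accession and 2933 renamed. The number of arrays limits the precision.

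Groups came from the sample titles. The members and gene lists were chosen with earlier results of these data known. The text names all members, all genes of the lists of other and fused-type S100 genes, called partners, and the 3 genes most like each member among those well above background on at least 14 arrays. Alternatives covered background, normalization, filters, probe choice, fits, blocks and left-out arrays. In a test on simulated data with 200 changed genes, 57% and 86% of log2 changes of 1 and 2 were recovered from P0 to P7, and 72% and 91% for Keap1-/- against wild type.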

Additional observations from a re-analysis of the deposited data

Results flagged for a closer look

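The effect of losing Keap1 at P7 differed with the Nrf2 genotype for 2 members. For S100a3 the interaction was -3.67 ± 0.18 (limma, adjusted p = 7.32e-07): the gene was lower in Keap1-/- than in wild type on 3 of 3 arrays and higher in Nrf2-/-Keap1-/- than in Nrf2-/- on 3 of 3 arrays. For S100a10 it was -1.51 ± 0.29 (adjusted p = 0.00683), with 3 of 3 Keap1-/- arrays below all other P7 arrays. The Keap1-/- arrays had a slide and scan of their own, so both interactions cannot be told apart from that batch.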

How the results depend on the processing

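Of 983 pairs of a called single-gene result and an alternative, 842 kept direction and call, 140 lost the call and 1 reversed, and 13 of the 38 called results lost it under none of those tried. Of 2572 pairs for results not called, 121 gained a call. Median centring moved the median of all genes by -0.286 to -0.866 log2 units between groups, so changes are relative to it. The cause of each shift below was not tested. Among P7 genotypes the slide correlation was -0.1, so calls gained there with slide as a block are no correction for slide. Leaving out flagged spots removed values, and a gene with fewer than 2 in a group was not tested. Lower counts without flagged spots may therefore include genes not tested.

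Counts of called members are given beside the main count. Across the 4 stages (main 6) they were 3 under median centring, 2 without outlier-flagged spots, 3 with each spot's own local background, 3 with slide as a random block and 9 without E11.5 replicates 2 and 3 and E15.5 replicate 1, left out together after the data were seen (the 3 embryonic arrays). From P7 to adult (main 4) they were 1 with all 27 arrays in the fit, 1 without outlier-flagged spots and 2 with own local background. For the Nrf2 by Keap1 interaction (main 2) they were 1 without outlier-flagged spots, 5 with slide as a block and 5 without P7 wild-type replicate 2 and Nrf2-/- replicate 3, which were also high in S100a8 itself. The age by Nrf2 interaction (main 0) gave 1 with own local background. From E11.5 to P7 (main 6) the counts were 2 under median centring, 1 without outlier-flagged spots, 3 with slide as a block and 9 without the 3 embryonic arrays. From E15.5 to P0 (main 4) they were 7 with all 27 arrays, 2 under median centring, 2 without outlier-flagged spots, 2 with own local background and 9 without the 3 embryonic arrays. From E11.5 to E15.5 (main 0) they were 4 and 7 without 2 or 3 embryonic arrays. Without outlier-flagged spots the embryonic mean gave 2 to P0 (main 6) and 3 to P7 (main 7), and Keap1-/- against Nrf2-/-Keap1-/- gave 2 (main 6, and 3 when 2-fold was required). Keap1-/- against wild type (main 3) gave 6 under median centring, 5 with slide as a block and 5 without P7 wild-type replicate 2 and Nrf2-/- replicate 3. Nrf2-/-Keap1-/- against wild type (main 0) gave 2 under median centring, 1 with scaled arrays and 2 with slide as a block. Adults (main 0) gave 1 each with all 27 arrays, the brightest probe, no filter and own local background.

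With 1 array left out, counts ran from 3 to 7 across the stages, 2 to 6 from P7 to adult, 2 to 4 for the Nrf2 by Keap1 and 0 to 0 for the age interaction, 0 to 0 from E11.5 to E15.5, 1 to 7 from E11.5 to P7, 1 to 6 from E15.5 to P0, 0 to 0 from P0 to P7, 2 to 7 and 4 to 9 from the embryonic mean to P0 and P7 (9 and 10 without the 3 embryonic arrays), 3 to 8 for Keap1-/- against Nrf2-/-Keap1-/-, 2 to 5 for Keap1-/-, 0 to 0 for Nrf2-/- and 0 to 1 for Nrf2-/-Keap1-/- against wild type, and 0 to 1 in adults.

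Reversals were S100a14 between P7 and adult (-0.13 with scaled arrays), S100a8 there (0.65 without P7 replicate 2; -1.17 to 0.65 over left-out arrays), S100a4 from E11.5 to P7 (1.32 without E11.5 replicate 2, 1.44 without the 3 embryonic arrays; -1.08 to 1.32 over left-out arrays) and S100a6 from E11.5 to E15.5 (3.02 without the 3 embryonic arrays; -1.68 to 0.63 with 1 array left out).

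Over all genes, under alternatives that left out no array, adults had 19 to 1693 calls against 81, Nrf2-/-Keap1-/- 3 to 503 against 82, the age interaction 6 to 1130 against 18, Nrf2-/- at P7 2 to 9 against 3, and P0 to P7 249 to 1124 against 485. With own local background the counts fell to 1740 of 3916 from E15.5 to P0, 3334 of 5712 from the embryonic mean to P0, 4187 of 7794 from P7 to adult (4329 under median centring) and 3701 of 5985 across the stages. Requiring 2-fold left 1570 from E15.5 to P0, 2399 of 6008 from E11.5 to P7, 1814 and 2446 of 7247 from the embryonic mean to P0 and P7, 3342 from P7 to adult, 1629 of 6417 in Keap1-/-, 1546 of 6426 against Nrf2-/-Keap1-/- and 1268 of 2909 for the interaction. Calls higher made up 61.6% under median centring against 47.2% for the Nrf2 by Keap1 interaction, 40.2% against 57.1% from E15.5 to P0, 36.2% against 55.5% from E11.5 to P7, 44.1% against 61.0% from P0 to P7 and 88.3% against 72.0% for Nrf2-/-Keap1-/-. With scaled arrays they were 53.6% for Nrf2-/-Keap1-/- and 32.8% against 50.6% in adults.

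Replicate numbers share no source in the labels, and same-numbered samples deviated together by r of -0.46 to 0.64 over 18 pairs of the developmental fit, so the numbers do not pair the samples. With a replicate block, 35 of 38 calls were kept, 10 were gained (adjusted p 0.0272 to 0.0473, S100a6 in Keap1-/- at -0.67 with 0.0355 among them) and 3 lost: S100a1 from E15.5 to P0 (adjusted p = 0.0539), S100a8 in Keap1-/- (0.0749) and S100a14 against Nrf2-/-Keap1-/- (0.0678). Scan could not be fitted as a block among the 4 stages or the P7 genotypes, since it does not vary or holds 1 group.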
